A study of Mus musculus with 12 samples.

Results

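Circular RNAs (circRNAs) whose back-spliced ends lie at least 50 kb apart on the mouse genome were described in the retina of 3 mouse models of inherited photoreceptor degeneration. Members were the rows of the deposited circRNA table with a genomic span of 50000 bp or more, after leaving out every circRNA that had at least 1 junction read in all 12 samples. The rule kept 1299 of 12510 circRNAs, which came from 547 host genes. A further 34 circRNAs of this span were left out because all 12 samples counted them, and 10619 shorter circRNAs that were not counted in all 12 samples served for comparison.

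The groups were Pde6b rd1 retina at postnatal day 13, Pde6b rd10 retina at day 23, Prph rd2 retina at day 29, and C3H wild-type retina with 1 sample each at days 13, 23 and 29. Each group had 3 samples of total RNA from whole retina, no group was treated, and the day of each model was the peak of its photoreceptor death. The study's methods place Pde6b rd1 and Prph rd2 on the C3H background and Pde6b rd10 on C57Bl6/J, whereas the label of the Prph rd2 samples reads C57BL6/J. The Pde6b rd10 allele and its strain background therefore cannot be told apart in any comparison with C3H. If the label is right, the same holds for Prph rd2. Each model was taken at 1 age, so model and age cannot be told apart across the groups either. Nothing in the labels says whether the samples were separate animals or pools, so the p-values measure the spread between these samples. Mice were used irrespective of sex, and reads of the Y-linked gene Ddx3y were absent (0 reads) from the 3 Pde6b rd1 samples but ranged from 757 to 2005 in the other 9.

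A circRNA forms when the splicing machinery joins the end of one exon back to the start of an exon upstream of it, which leaves a closed loop without a cap or a poly(A) tail. The back-splice junction is the only stretch of sequence that tells the circle from the linear mRNA of its host gene, so the reads across it are its count. Long genes with long introns are common among neuronal genes, and many circRNAs of brain and retina come from such genes. The span of a circRNA on the genome is not its length, because the introns within it are normally spliced out.

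The 4 groups held 9819 to 25009 junction reads per sample, and 17049495 to 24755890 reads counted on genes. Pde6b itself measured 56.7 to 57.6 FPKM (fragments per kilobase per 1000000 reads counted on genes) in Pde6b rd1 and 241.1 to 244.9 in C3H. The rod marker list summed to 4880 to 4970 FPKM in C3H, 2523 to 2550 in Pde6b rd1, 3323 to 3529 in Prph rd2 and 4324 to 4488 in Pde6b rd10. The microglia list summed to 77.9 to 88.8 FPKM in Pde6b rd10 and to at most 25.04 in any sample of the other groups. No marker of the 10 retinal cell type lists was at 0 in any group, and in whole retina fewer cells of a type and less RNA per cell cannot be told apart.

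The junction sequences below show how the circles are joined for 9 of the members named in the group comparisons. Each is 40 bases of the reference genome GRCm38, read 5′ to 3′ on the strand of the host gene. The capitals mark the last 20 bases of the last exon of the circle and the lower case letters mark the first 20 bases of its first exon. Pairs from Lrba and Ralgps1 share the first exon and differ in the last one, so their lower case parts are the same. Joins that touch an annotated untranslated region are not shown.
Lrba, chr3:86291427-86445473, plus strand: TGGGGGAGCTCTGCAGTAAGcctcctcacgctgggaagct
Lrba, chr3:86291427-86417996, plus strand: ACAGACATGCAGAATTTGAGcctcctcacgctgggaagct
Ralgps1, chr2:33260478-33324703, minus strand: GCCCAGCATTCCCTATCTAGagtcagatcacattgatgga
Ralgps1, chr2:33273561-33324703, minus strand: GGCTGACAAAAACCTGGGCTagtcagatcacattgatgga
Psd3, chr8:67882981-68000825, minus strand: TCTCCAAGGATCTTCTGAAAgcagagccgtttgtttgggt
Cep112, chr11:108664496-108808739, plus strand: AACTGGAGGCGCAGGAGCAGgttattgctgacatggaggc
Cpeb3, chr19:37087538-37139221, minus strand: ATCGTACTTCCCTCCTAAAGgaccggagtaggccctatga
Man1a2, chr3:100578476-100656274, minus strand: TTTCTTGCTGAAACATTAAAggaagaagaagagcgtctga
Dync2h1, chr9:6935239-6996939, minus strand: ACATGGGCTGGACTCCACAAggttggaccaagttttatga
In the genome the introns on both sides of these 9 circles carry the usual splice letters, AG before the first exon and GT after the last one. Among all members, 1288 of 1299 had AG and GT, and 8 had AG and GC.

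The members spanned a median of 77314 bp (quartiles 59861 and 116330 bp), and 427 of them spanned at least 100 kb, 116 at least 200 kb and 10 at least 500 kb. The longest, from the synaptic adhesion gene Nrxn3 (chr12:89193046-90283650), spanned 1090605 bp and had 3 junction reads, all in the second Pde6b rd10 sample. The next longest were a pair from Nrxn3 (783483 and 701801 bp), 1 from the dystrophin gene Dmd (670448 bp) and 1 from the postsynaptic gene Anks1b (638374 bp), with 7, 2, 2 and 11 junction reads over the 12 samples. Just inside the threshold lay circRNAs of Clec16a (50030 bp), Usp25 (50047 bp) and Tlk2 (50052 bp), with 3, 2 and 8 reads. Just outside it lay circRNAs of Atp2c1 (49966 bp), Tenm3 (49935 bp) and Eml5 (49899 bp), with 2, 16 and 8 reads.

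Both ends lay at exon boundaries of 1 annotated transcript for 1291 of the 1299 members (99.4%). These members joined a median of 8 exons with 1215 nt of exon sequence, against 4 exons and 640 nt for the shorter circRNAs. The longest intron within a member had a median of 34216 bp, which made up a median of 40.6% of its span. In shorter circRNAs that intron had a median of 4483 bp and made up 47.4% of the span. The flanking introns were long too: the upstream intron had a median of 19762 bp and the downstream one 21123 bp, against 6254 and 4922 bp for the shorter class. Host genes of members were long, with a median of 337270 bp over members against 93607 bp over shorter circRNAs, and a member covered a median of 28.8% of its host. Exon 2 of a transcript was the first exon of 415 members (32.1%), against 24.4% of the shorter class. These lengths are tied to the rule on span and are given as a description.

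The 1000 bases next to each end were searched for 15-base stretches that occur in inverted orientation on the other side of the circle, since inverted repeats can bring both ends of a circle together. Such a match was present for 51 members (3.93%) and for 1039 shorter circRNAs (9.78%). A match in the same orientation was present for 45 members (3.46%) and 835 shorter ones (7.86%). Repeats masked in the genome made up a median of 20.9% of the flanks of members and 25.5% of those of the shorter class. A match is a description of these windows and not a measured pairing.

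**Figure D1:**
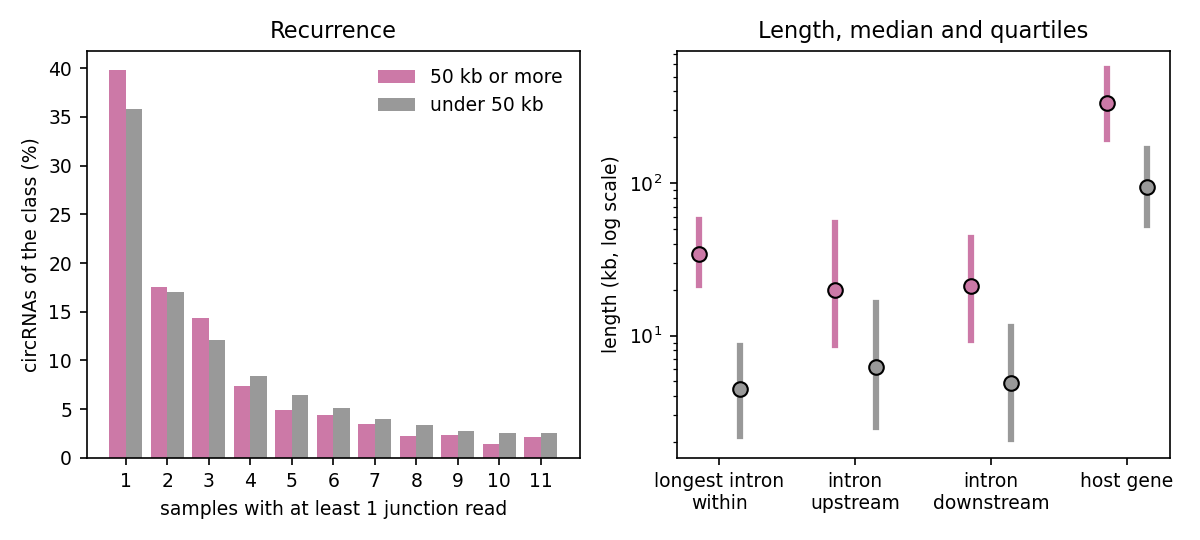
Left, the percentage of long (pink) and shorter (grey) circRNAs that were counted in 1 to 11 samples; 39.8% of the long and 35.8% of the shorter ones were counted in a single sample. Right, medians (points) and quartiles (bars) of intron and host gene lengths in kb on a log axis; the flanking and inner introns and the hosts of long circRNAs are longer.

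Most members were rare. The median member had 4 junction reads over all 12 samples and was counted in 2 of them, the same medians as for shorter circRNAs. A single sample counted 517 members (39.8%), against 35.8% of the shorter class, and 208 members (16.0%) were counted in at least 6 samples, against 20.3%. Of the 517, 378 had exactly 2 reads, 121 had 3 to 5 reads and 18 had more. In a sample, 25% to 42.4% of the members it counted had a single read. The mean number of reads per counted circRNA was lower for members than for shorter circRNAs in 9 of 12 samples, by 0.061 ± 0.14 reads (mean of differences, SD, n = 12), which was not larger than the spread between samples (exact two-sided sign-flip permutation test, p = 0.162). The gap was 0.259 reads when only spans of at least 100 kb were taken as long (exact p = 0.000977), and at a limit of 20 kb the sign turned, with 0.0682 reads more per long circRNA (exact p = 0.0396).

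Of the members that a sample counted, a median of 40.6% were also counted in another sample of its group (12 pairs taken in both directions, 25.6% to 55.5%), and a median of 39.8% in a sample of another group (54 pairs, 21.0% to 53.9%). Zeros also sat beside high counts. The rule leaves out circRNAs counted in all 12 samples, so every member has a zero somewhere, as has every shorter circRNA compared. The zeros that follow are therefore a description. Foxn3 encodes a forkhead transcription factor, and its 97681-bp circRNA had 12, 0 and 13 reads in the C3H samples. The 51328-bp circRNA of Stk39, a kinase that regulates ion cotransporters, had 12, 0 and 9 reads in Pde6b rd1. Where 2 samples of a group had at least 10 reads, the other had none in 2 of 20 cases among members and in 31 of 203 cases among shorter circRNAs.

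Members shared their splice sites with other circles more often than shorter circRNAs did. At least 1 end was used by another circRNA of the table for 1129 members (86.9%) and for 60.3% of the shorter class. Both ends were used elsewhere for 579 members (44.6%) against 16.3%. An end of a circRNA that all 12 samples counted was used by 307 members (23.6%) and by 7.20% of the shorter class. Members with shared ends are therefore not independent of each other.

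circBase, a catalogue of published circRNAs, listed 303 members (23.3%), 35.9% of the shorter circRNAs and 88.9% of those counted in all 12 samples. The 34 circRNAs of this span that all samples counted include the best covered ones. An Atxn1 circRNA of 161067 bp had 644 reads over the 12 samples, one of Stau2 (69086 bp) had 486, a second one of Atxn1 (221461 bp) had 426 and one of Strbp (66613 bp) had 409.

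The question of the study was which RNAs change at the peak of photoreceptor death, and a first comparison asked how much of the circRNA signal came from long circRNAs. Their share of junction reads was 5.36%, 4.66% and 4.80% in the C3H samples, 4.02%, 4.04% and 4.13% in Pde6b rd1, 5.15%, 5.21% and 4.94% in Prph rd2, and 5.41%, 5.34% and 5.16% in Pde6b rd10. The Pde6b rd1 samples lay below all 9 others, and the other 3 groups overlapped. The 95% Wilson intervals of the single shares reached 0.278 to 0.39 percentage points to each side and cover counting error only. The share differed across the 4 groups (exact permutation test of the variation between groups, p = 0.00468, adjusted p = 0.00468 over 6 such tests). The rule on members uses the counts of these samples, since it leaves out circRNAs counted in all 12, whose share of junction reads was 52.97% in Pde6b rd1, 49.43% in C3H, 48.41% in Prph rd2 and 46.68% in Pde6b rd10 (means). With those of 50 kb or more put back, the exact p across groups was 0.00188 and the log2 ratio of Pde6b rd1 to C3H was -0.21, against -0.28 without them. The shorter circRNAs moved in the same order, with 42.97% in Pde6b rd1, 45.63% in C3H, 46.49% in Prph rd2 and 48.02% in Pde6b rd10 (exact permutation p = 0.0011 across groups, adjusted p = 0.00166 over 6 tests), so the order was not particular to long circRNAs. Each model against C3H gave a two-sided exact permutation p of 0.1 for Pde6b rd1, 0.3 for Pde6b rd10 and 0.6 for Prph rd2, and 3 samples against 3 cannot go below 0.1.

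A single circRNA raised the share of 1 control. The gene Tcf12 encodes a transcription factor of the basic helix-loop-helix family, and its 98707-bp circRNA (chr9:71917005-72015711) had 92 reads in the first C3H sample and 0 in the other 11. It was the member with the most reads in any one sample, and the next highest count of a circRNA counted in 1 sample was 22 among members and 37 in the shorter class. Without it the share of the first C3H sample was 4.85%, and all 3 samples of Pde6b rd10 and of Prph rd2 then lay above the 3 C3H samples (exact p = 0.1 in each comparison, and 0.00013 across the 4 groups). This alternative was chosen after seeing the data.

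The number of members followed the same order. The samples counted 275 to 354 members in C3H, 191 to 241 in Pde6b rd1, 352 to 389 in Prph rd2 and 364 to 466 in Pde6b rd10, and deeper samples counted more. At the lowest depth of 9819 junction reads, the expected number was 241.1 ± 6.9 (SD, n = 3) in C3H, 196.6 ± 4.96 in Pde6b rd1, 270.3 ± 6.39 in Prph rd2 and 283.2 ± 20.9 in Pde6b rd10. The shorter circRNAs stood in the same order at that depth, with 2300 in C3H, 2013 in Pde6b rd1, 2391 in Prph rd2 and 2454 in Pde6b rd10. For members the 4 groups differed (exact permutation p = 0.000325, adjusted p = 0.00156 over 6 tests), and Pde6b rd1 lay below and both other models above C3H without overlap (exact p = 0.1 each, the smallest possible). Members made up 8.03% of the circRNAs counted in a C3H sample, 7.14% in Pde6b rd1, 8.82% in Prph rd2 and 8.97% in Pde6b rd10 (means, exact permutation p = 0.00182 across groups). The circRNAs counted include the 592 that every sample counted and that the rule keeps out of members. They weigh more where fewer circRNAs were counted, so this share is tied to depth and to the rule. The rule also bears on the expected numbers at the lowest depth and on the reads of members relative to genes. A circRNA missed in a shallow sample stays a member, while one counted in every sample is left out. Bringing samples to equal depth does not undo this, so these tests across groups are a description.

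Relative to reads on genes the spread between groups was wider. Members had 41.5 ± 5.73 junction reads per 1000000 gene reads in C3H, 25.1 ± 2.2 in Pde6b rd1, 42.8 ± 2.71 in Prph rd2 and 53.4 ± 1.58 in Pde6b rd10 (SD, n = 3 each; exact permutation p = 0.000519 across groups). All junction reads moved alike: 839.4, 616.8, 840.2 and 1007 per 1000000 gene reads in the same order. The sums of rod markers, at the values given above, were also lowest in Pde6b rd1, as were those of Müller glia (397.2 to 406.6 FPKM against 777.5 to 800.9 in C3H), cones (143.8 to 147.8 against 197.1 to 201.4), ganglion cells (224.2 to 229.7 against 296.9 to 308.5) and pigment epithelium (4.79 to 4.97 against 7.94 to 8.41). Amacrine cell sums (169 to 169.8 against 183.1 to 186.1) and horizontal cell sums (16.1 to 17.2 against 20.2 to 21.4) were lowest in Pde6b rd1 too. The bipolar cell sums were higher in Pde6b rd1 than in C3H (402.4 to 410.3 against 344.8 to 358). The median log2 fold change over the markers was however -0.17 for bipolar cells, with 0 of 7 called, and 0.17 for horizontal cells. The part of cell composition in the share was not tested.

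**Figure D2:**
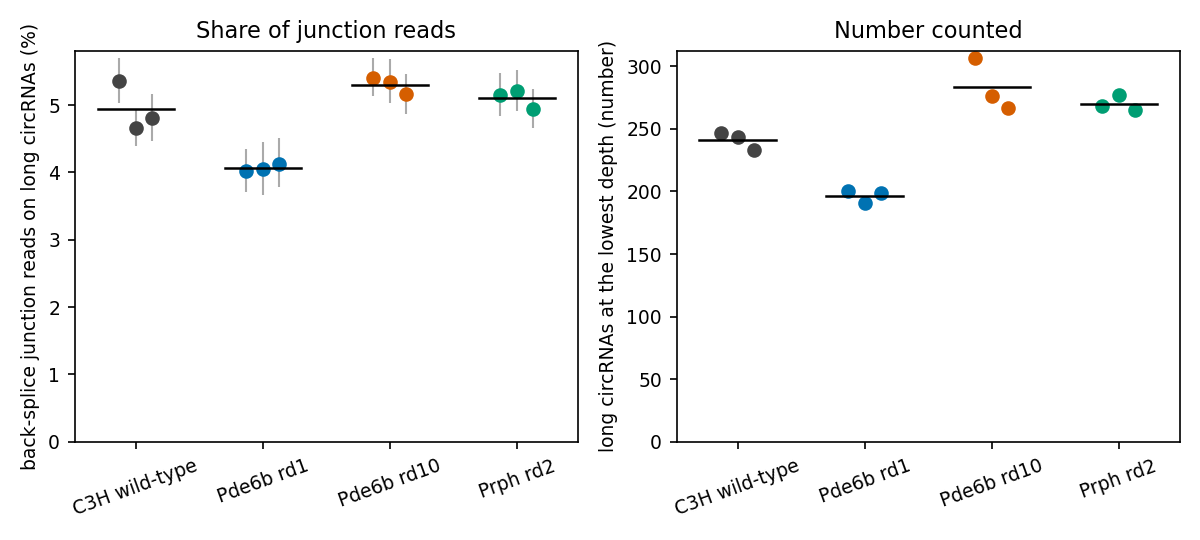
Left, the percentage of back-splice junction reads on long circRNAs in each sample with its 95% Wilson interval (grey); right, the number of long circRNAs expected at 9819 junction reads. Points are samples and lines are means of 3 samples; the Pde6b rd1 samples lie lowest in both plots, at 4.02% to 4.13% and 191 to 200.3 circRNAs.

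Across the 4 groups, 292 members had at least 2 reads in at least 3 samples and were tested with edgeR's quasi-likelihood F-test. The adjusted p (Benjamini-Hochberg, over all 3630 circRNAs tested) was under 0.05 for 10 of them (3.42%), against 3.88% of all circRNAs tested. Long circRNAs were thus not called more often than circRNAs in general, a set that includes those counted in all 12 samples. The counts of 8 of them are given here and plotted by sample. With the likelihood ratio test of DESeq2 4 members passed, and without the first Pde6b rd10 sample 6 did.

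The largest difference lay in Ano3, a gene of the anoctamin family of membrane proteins. Its 56301-bp circRNA (chr2:110738771-110795071, exons 5 to 14 of 27) had 16, 53 and 18 reads in C3H, 20, 12 and 18 in Pde6b rd1, 22, 25 and 33 in Prph rd2, and 0, 0 and 0 in Pde6b rd10. The Pde6b rd10 group was at 0 and did not overlap any other (adjusted p = 9.27e-15 across groups). Against the 3-count limit of each library the level in Pde6b rd10 was at least 10.7-fold lower than in C3H (edgeR adjusted p = 6.99e-06). The other 6 circRNAs that start at the same exon had 34, 19, 49 and 0 reads in C3H, Pde6b rd1, Prph rd2 and Pde6b rd10, so none of the circles from this exon was counted in Pde6b rd10. The host gene measured 3.26 ± 0.13 FPKM in C3H and 2.64 ± 0.10 in Pde6b rd10 (SD, n = 3).

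Lrba, a vesicle trafficking gene, lost some circles and kept others. Its 154047-bp circRNA (chr3:86291427-86445473) had 5, 10 and 6 reads in C3H, 7, 5 and 3 in Pde6b rd1, 7, 11 and 9 in Prph rd2 and 0 in each Pde6b rd10 sample (adjusted p = 0.00188 across groups). Against the 3-count limit this was at least 2.7-fold lower in Pde6b rd10 than in C3H (adjusted p = 0.0124). The 126570-bp Lrba circRNA with the same first exon had 3, 12 and 11 reads in C3H and 0, 2 and 0 in Pde6b rd10, a log2 fold change of -3.67 ± 0.98 (SE, adjusted p = 0.037). Circles of under 50 kb that start at this exon had 21, 14, 18 and 27 reads in C3H, Pde6b rd1, Prph rd2 and Pde6b rd10. Summed over the 13 Lrba members, reads fell in Pde6b rd10 (log2 fold change -1.87 ± 0.41, SE, edgeR adjusted p = 0.00932), while the host gene differed by 0.09 on the log2 scale.

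Psd3 encodes an exchange factor for small GTPases of the Arf family, and its 117845-bp circRNA (chr8:67882981-68000825) was another circle listed at 0 in Pde6b rd10. It had 7, 5 and 6 reads in C3H, 5, 2 and 11 in Pde6b rd1, 7, 6 and 7 in Prph rd2 and 0 in the 3 Pde6b rd10 samples (adjusted p = 0.00498 across groups). The level was at least 2.44-fold lower in Pde6b rd10 than in C3H (adjusted p = 0.0226), and the host gene was lower too, at 9.70 ± 0.51 against 15.1 ± 0.60 FPKM. Ano3, Lrba and Psd3 gave the 3 members that all 9 samples outside Pde6b rd10 counted and no Pde6b rd10 sample did. No other of the 1299 members was missing from a group in this way. Among the 10619 shorter circRNAs there were 7 for Pde6b rd10, 10 for Pde6b rd1, 1 for C3H and 0 for Prph rd2. CircRNAs of this kind are kept by the rule on all 12 samples only through these zeros. The p-values of Ano3, Lrba and Psd3 are therefore a description.

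The opposite pattern was seen in other genes. The 3 circRNAs given here passed the filter on reads only through the Pde6b rd10 samples, where they are high, so their p-values are a description. Cep112 encodes a centrosomal protein, and its 144244-bp circRNA (chr11:108664496-108808739, exons 21 to 24 of 27) had 20, 9 and 2 reads in Pde6b rd10 and 0 in the other 9 samples (edgeR adjusted p = 0.000303 across groups, and 0.0124 against C3H). Its mean in Pde6b rd10 was at least 2.7-fold above the 3-count limit of C3H. The last Pde6b rd10 sample, with 2 reads, was itself under 3 counts, so the bound holds for the mean only. No other circRNA of the table shared either end. Mdga2, a gene for a synaptic adhesion protein, had a 104957-bp circRNA with 9, 3 and 6 reads in Pde6b rd10 and 0 elsewhere (adjusted p = 0.0245 across groups, and 0.0501 against C3H). The RNA-binding protein gene Khdrbs3 had a 54410-bp circRNA with 8, 6 and 5 reads in Pde6b rd10, 0, 2 and 0 in C3H and 0 in both other groups (adjusted p = 0.0477). The other 3 circles from its first exon had 29 reads in Pde6b rd10 against 4 in C3H, 0 in Pde6b rd1 and 3 in Prph rd2.

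The remaining pair differed mainly through Pde6b rd1. Cpeb3 encodes a regulator of translation at synapses, and its 51684-bp circRNA (chr19:37087538-37139221) had 11, 14 and 5 reads in C3H, 0, 3 and 2 in Pde6b rd1, 13, 10 and 10 in Prph rd2 and 22, 17 and 17 in Pde6b rd10 (adjusted p = 0.0102). Per 1000000 junction reads it measured 539.2 ± 169.2 in C3H, 160.6 ± 153.4 in Pde6b rd1, 554.1 ± 137.9 in Prph rd2 and 877.4 ± 63.9 in Pde6b rd10 (SD, n = 3). The 61701-bp circRNA of Dync2h1, a motor protein of transport in cilia, had 7, 7 and 2 reads in C3H, 0 in each Pde6b rd1 sample, 8, 12 and 6 in Prph rd2 and 5, 0 and 9 in Pde6b rd10 (adjusted p = 0.0343).

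**Figure D3:**
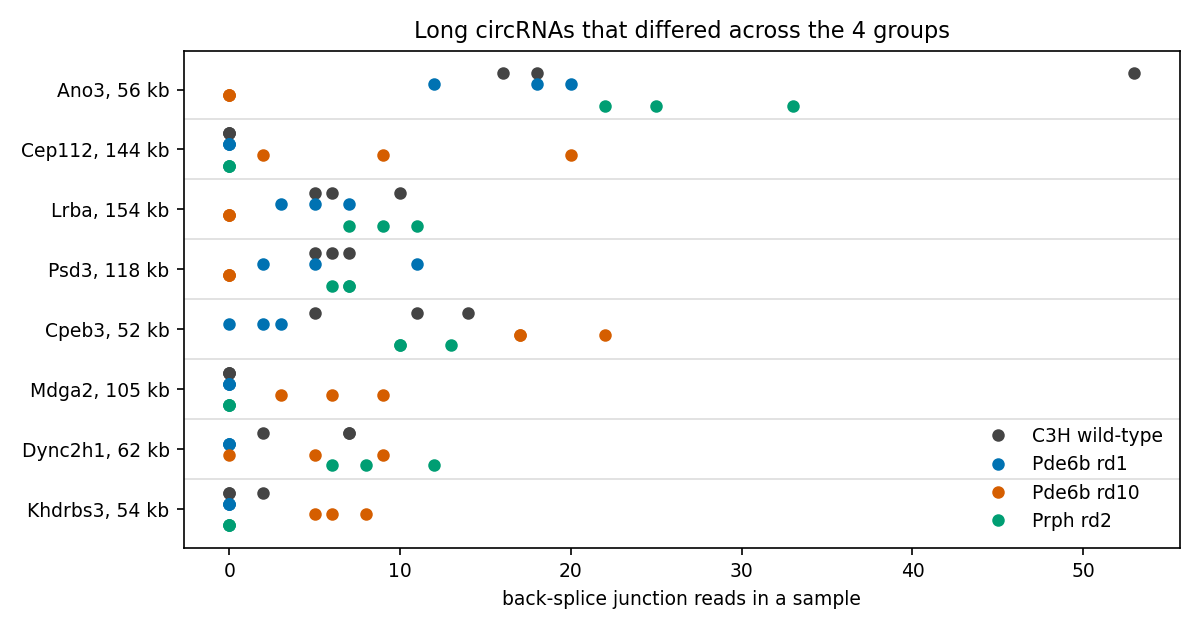
Junction reads of 8 of the 10 long circRNAs with an adjusted p under 0.05 across the 4 groups, 1 point per sample (equal counts overlap), ordered by p from the top. The Pde6b rd10 samples (orange) sit at 0 for Ano3, Lrba and Psd3 and are the only group above 0 for Cep112 and Mdga2.

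Of the 1299 members, those counted in a single group and in all 3 of its samples numbered 18 for Pde6b rd10, 4 for Prph rd2, 1 for C3H and 0 for Pde6b rd1. Of the 10619 shorter circRNAs, 55, 9, 8 and 4 were of this kind. In the same order the groups held 64016, 60396, 53803 and 36137 junction reads. The counts stood in the order of depth, with 18 and 4 members at 64016 and 60396 reads. The C3H samples were of 3 ages and each model of 1, so being counted in all 3 samples is not a like condition. The parts of depth, age and the strain background in these differences were not tested.

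Against C3H, each model was tested with edgeR on members with at least 2 reads in at least 3 of the 6 samples, and a circRNA was called at an unadjusted p under 0.05 with at least a 2-fold change, the rule of the study's methods applied to counts. All 3 comparisons share the C3H samples. In Pde6b rd10, 164 members were tested, of which 20 (12.2%) were higher and 11 (6.71%) lower, against 6.71% and 5.13% of all circRNAs tested. Of the 20 that were higher, 13 had no read in C3H, and of the 11 that were lower, 5 had none in Pde6b rd10. These 13 and 5 passed the filter on reads through 1 group alone. Here and in the other comparisons, all circRNAs tested include those counted in all 12 samples, which the rule leaves out of members. The shares are therefore not of like sets and are given as a description. The adjusted p was under 0.05 for 7 of the 31, and 20 members were called with DESeq2 and 20 when only the C3H sample of the same day was used. Man1a2, which encodes a mannosidase of the Golgi, is on that list: its 77799-bp circRNA had 9, 9 and 7 reads in C3H and 1 in each Pde6b rd10 sample (log2 fold change -3.12 ± 0.78, SE, adjusted p = 0.0235). Stag1, a cohesin subunit, gave a 203565-bp circRNA with 5, 7 and 2 reads in Pde6b rd10, 0 in C3H and Pde6b rd1 and 0, 2 and 2 in Prph rd2 (edgeR adjusted p = 0.098).

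In Pde6b rd1, 89 members were tested, of which 5 (5.62%) were lower and 0 higher, against 5.25% and 1.12% of all circRNAs tested. The 5 came from Dync2h1, Man1a2, Cpeb3, Arhgap10 and Kdm2a. Man1a2 had 2, 1 and 0 reads against 9, 9 and 7 in C3H (log2 fold change -2.56 ± 0.84, SE, edgeR adjusted p = 0.471), Arhgap10, a regulator of small GTPases, had 0, 2 and 2 against 5, 9 and 10 (edgeR adjusted p = 0.483), and Kdm2a, a histone demethylase, had 1, 0 and 1 against 4, 13 and 2 (edgeR adjusted p = 0.506). None passed adjustment with edgeR (adjusted p 0.44 to 0.51), 5 members had an unadjusted p under 0.05, and DESeq2 called 3. Cpeb3, Arhgap10 and Kdm2a lost the call when the second C3H sample was left out, and then 3 members were called, while leaving out the first, second or last Pde6b rd1 sample gave 8, 10 and 10.

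In Prph rd2, 138 members were tested, of which 4 (2.9%) were higher and 1 (0.725%) lower, against 1.99% and 1.36% of all circRNAs tested, and none passed adjustment with edgeR (adjusted p 0.95 to 0.99). An unadjusted p under 0.05 was reached by 5 members, and DESeq2 called 2. The 51143-bp circRNA of Ralgps1, which encodes an activator of Ral GTPases, had 4, 4 and 2 reads in Prph rd2 and 0 in the other 9 samples (edgeR adjusted p = 0.951). The 64226-bp Ralgps1 circle from the same first exon, shown above, had 10, 20 and 13 reads in C3H and 9, 10 and 19 in Prph rd2. Mboat2, an acyltransferase gene, had 7, 15 and 13 reads against 5, 5 and 0 in C3H (log2 fold change 1.70 ± 0.65, SE, edgeR adjusted p = 0.951). Gas2, a cytoskeleton gene, had 17, 7 and 8 against 4, 3 and 3 (log2 fold change 1.55 ± 0.60, SE, edgeR adjusted p = 0.951). Tbc1d5, a regulator of Rab GTPases, had 4, 4 and 3 against 0, 0 and 1 (edgeR adjusted p = 0.995). Ube2cbp, a ubiquitin ligase gene, had 0, 8 and 0 against 4, 18 and 9 and was the member called lower (edgeR adjusted p = 0.995). Leaving out the first C3H sample gave 9 called members and leaving out the first Prph rd2 sample gave 2.

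**Figure D4:**
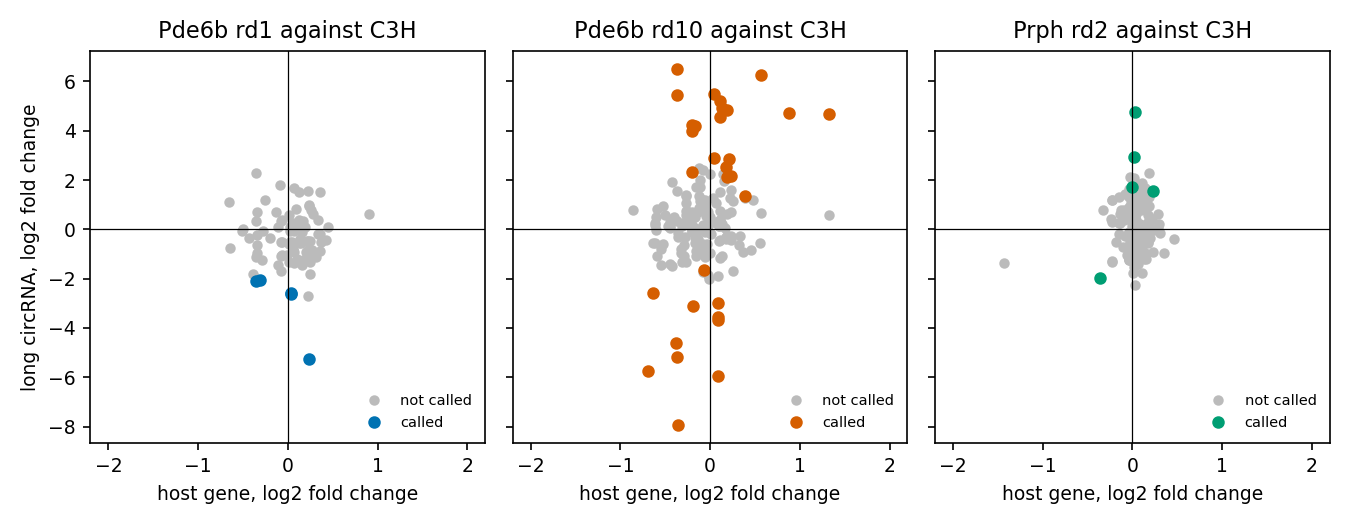
Log2 fold change of each tested long circRNA (vertical axis) against that of its host gene (horizontal axis) in the 3 comparisons with C3H; coloured points were called at p under 0.05 with at least 2-fold change. Called circRNAs spread along the vertical axis while most of their hosts lie near 0, and points at the vertical extremes come from groups with 0 reads, where the fitted value is not a measured fold.

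The host genes were tested on their own reads. All 547 hosts were in the gene table, and at p under 0.05 with at least 1.5-fold change 9 rose and 7 fell in Pde6b rd1 (1.65% and 1.28% of the 546 tested, against 8.98% and 6.03% of all genes), 24 rose and 27 fell in Pde6b rd10 (4.39% and 4.94%, against 15.9% and 8.08%) and 1 rose and 2 fell in Prph rd2 (0.183% and 0.366%, against 2.68% and 1.89%). These lower shares hold for the fold limit only. At an edgeR adjusted p under 0.05 with no fold limit, 364 of 546 hosts passed in Pde6b rd1, against 7907 of 18310 genes. It was 352 of 547 against 10115 of 18704 in Pde6b rd10, and 100 of 546 against 1802 of 18581 in Prph rd2. There the share was higher for hosts in each comparison. Among the 31 members called in Pde6b rd10, the host was called in the same direction for 4, and among the 5 called in Pde6b rd1 and the 5 in Prph rd2 for none. The hosts of the 4 were Agtpbp1, a tubulin deglutamylase, and the formin Diaph3, which rose with their circRNAs, and Psd3 and the adenylyl cyclase Adcy1, which fell with theirs. Across members the correlation of both log2 fold changes was r = 0.0024 in Pde6b rd1 (89 members of 72 hosts), 0.25 in Pde6b rd10 (164 of 121) and 0.096 in Prph rd2 (138 of 106), given as a description since members share hosts and libraries.

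A single member came from each of 303 hosts (55.4%), and 17 hosts with at least 10 members held 249 members (19.2%). Dmd held 29 members, the presynaptic scaffold gene Rims2 19, Arhgap10 16 and Nbea, which acts in synaptic membrane traffic, 16. Summed over its members, Dmd had 14, 11 and 12 reads in C3H, 12, 4 and 6 in Pde6b rd1, 16, 16 and 16 in Prph rd2 and 23, 11 and 10 in Pde6b rd10. Those of Rims2 had 16, 14 and 5 reads in C3H and 21, 25 and 18 in Pde6b rd10, those of Arhgap10 12, 21 and 16 in C3H and 3, 6 and 5 in Pde6b rd1, and those of Nbea 6, 5 and 8 in C3H and 6, 8 and 10 in Pde6b rd10.

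The reads of all members of a host were summed and tested in the same way beside the other circRNAs of each host. In Pde6b rd1, 10 of 121 hosts were lower and 0 higher (8.26% against 5.07% of all sums lower and 0.921% higher). Arhgap10 (log2 fold change -1.30 ± 0.54, SE, edgeR adjusted p = 0.468) was among them, with Cpeb3, Man1a2, Kdm2a, the vesicle traffic gene Vps13b, the cilium gene Bbs9, the neurotrophin receptor gene Ntrk3, Tcf12 and Uty. In Pde6b rd10, 10 of 172 were higher and 10 lower (5.81% each, against 5.91% and 4.2% of all sums). In Prph rd2, 3 of 154 were higher and 2 lower (1.95% and 1.3%, against 2.4% and 1.43%). Without the second C3H sample 6 sums were called in Pde6b rd1, and without the first one 12 were called in Prph rd2, or 10 without the second Prph rd2 sample.

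The summed result of Tcf12 depended on the first C3H sample for its size. Its members had 96, 3 and 4 reads in C3H and 0 in all Pde6b rd1 samples, and the log2 fold change was -7.93 with an adjusted p of 0.0115. Without that sample the fitted log2 fold change in Pde6b rd1 was -4.62 (edgeR unadjusted p = 0.032, adjusted p = 0.566), which still passed the unadjusted call, and a fitted value against samples with 0 reads is not a measured fold. In Pde6b rd10 the call was lost without that sample (log2 fold change -1.53, edgeR adjusted p = 0.749, against 0.012 with it), and likewise in Prph rd2 (-1.87, adjusted p = 0.961, against 0.372). Uty, a histone demethylase gene on the Y chromosome, had 6 members with 4, 10 and 6 reads in C3H and 0 in Pde6b rd1 (edgeR adjusted p = 0.204). The host gene Uty also had 0 reads in each Pde6b rd1 sample, 1642 to 2219 in C3H, 1096 to 1548 in Pde6b rd10 and 741 to 919 in Prph rd2, so circles and host of this Y-linked gene were both absent from Pde6b rd1. The part of sex in the other differences of Pde6b rd1 was not tested.

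The hosts were also read by function, from 7 lists with 389 gene symbols, of which 138 were hosts of 467 members (36.0%). The list of adhesion and axon guidance genes held 120 members (9.24%, against 1.91% of shorter circRNAs), the kinase, phosphatase and GTPase regulator list 85 (6.54% against 1.87%), the photoreceptor and cilium list 67 (5.16% against 2.28%), the RNA-binding, transcription and chromatin list 65 (5.004% against 1.77%), the ion channel and receptor list 51 (3.93% against 1.45%), the presynaptic list 42 (3.23% against 1.22%) and the postsynaptic scaffold list 37 (2.85% against 0.848%). The lists were drawn up with earlier results of these data known, so these shares are a description.

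In 5 of the lists, the hosts with the most reads on members were Adgrl3 (91) and Nrxn3 (81) for adhesion, Foxn3 (121) and Tcf12 (110) for transcription, the chloride channel gene Ano2 (142) and the potassium channel gene Kcnma1 (102) for channels, Rims2 (171) and Rims1 (43) for the presynaptic list, and Anks1b (88) and the gephyrin gene Gphn (57) for postsynaptic scaffolds. Long circRNAs of the postsynaptic list summed to 589.9 to 812.6 per 1000000 junction reads in C3H, 509.2 to 668.2 in Pde6b rd1, 921.9 to 1096 in Prph rd2 and 1106 to 1721 in Pde6b rd10. Pde6b rd10 and Prph rd2 lay above C3H and Pde6b rd1. The kinase and GTPase list summed to 2786 to 3852 per 1000000 in C3H and to 1203 to 2467 in Pde6b rd1, which lay below C3H. The adhesion and axon guidance list went the other way, with 2133 to 3308 in C3H and 3361 to 4052 in Pde6b rd1. In the remaining lists the ranges of Pde6b rd1 and C3H overlapped.

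The summed reads per host were called as above. In Pde6b rd1, where 5.07% of all sums were lower and 0.921% higher, 3 of 10 were lower for kinases and GTPase regulators (median log2 fold change -1.36, against -0.13 over all sums), 2 of 3 for the photoreceptor list, Bbs9 among them, and 1 of 10 for transcription, while 0 of 4, 0 of 2, 0 of 9 and 0 of 4 were called for the presynaptic, postsynaptic, adhesion and channel lists. In Pde6b rd10, where 5.91% of all sums were higher and 4.2% lower, 2 of 4 were higher on the postsynaptic list (median 1.00, against 0.096 over all sums), 1 of 8 on the presynaptic list, 1 of 5 on the photoreceptor list (Cep112) and 1 of 12 for transcription, where 1 was also lower. Of the kinase list 1 of 11 was lower, and 0 of 17 and 0 of 5 were called for adhesion and channels. In Prph rd2 the call was 1 of 13 lower for transcription, and no host of the other 6 lists was called.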

How the data were processed

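Total RNA of whole retina was depleted of ribosomal RNA and sequenced from stranded libraries. The authors aligned clean reads to mm10 with TopHat2 2.1.1, called back-splice junctions with CIRCexplorer and discarded candidates with under 2 junction reads, and the deposited circRNA counts are these junction reads. The deposited circRNA TPM values are counts per 1000000 junction reads of a sample, with no length term. Reads per gene were counted by the authors on GRCm38 with HTSeq 0.11.2 after HISAT2, and deposited as counts and as FPKM.

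Members and gene lists were chosen with earlier results of these data known. Starts in the circRNA table count from 0 and were printed from 1. Counts were tested with edgeR 4.0.16 (R 4.3.3; TMM scaling, quasi-likelihood test, Benjamini-Hochberg adjustment over all features tested), each model against C3H and all 4 groups together, on features with at least 2 reads in at least 3 samples. CircRNAs were called at p under 0.05 with at least 2-fold change, and genes with at least 1.5-fold change. Shares were compared by exact permutation tests over samples (scipy 1.17.1). Where a group had no read, a bound was computed against 3 counts per library. DESeq2 1.42.0, limma 3.58.1, other filters, scalings, span limits, same-day controls, a replicate block and fits without each sample were alternatives. The scripts were tested on simulated data. Named circRNAs were the members with the most reads (10), the longest spans (5), those counted in 11 samples (at most 10), the smallest p per comparison and direction (at most 5), adjusted p under 0.05 across groups (at most 10), the hosts with most members (5), the top 2 hosts of each list, and those nearest the span limit or left out for being counted in all 12 samples. Some circRNAs and hosts that this rule names are not reported here. Other named circRNAs were chosen after their values were seen. Sequences were read from GRCm38.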

Additional observations from a re-analysis of the deposited data

How the results depend on the processing

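Of the counts of long circRNAs called against C3H, Pde6b rd1 (5) became 2 with the C3H sample of the same day only, 3 with DESeq2, 10 at 2 reads in 2 samples, 2 with limma at a pseudocount of 0.1, 14 without a filter and 0 at an adjusted p under 0.05. Pde6b rd10 (31) became 20 with the C3H sample of the same day, 20 with DESeq2 and 7 at an adjusted p under 0.05. Prph rd2 (5) became 2 with DESeq2, 14 at 2 reads in 2 samples, 2 and 3 with limma at pseudocounts of 0.1 and 1, 21 without a filter and 0 at an adjusted p under 0.05. Leaving out each sample in turn gave 3 to 10, 25 to 33 and 2 to 9. Host sums became 6, 13 and 3 with DESeq2 and 8 in Prph rd2 without a filter, and ranged from 6 to 13, 16 to 22 and 5 to 12 when samples were left out. Host genes in Prph rd2 ranged from 3 to 5. Across 4 groups the 10 became 4 with the likelihood ratio test of DESeq2, and 6 to 12 when samples were left out. The cause was not tested.

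The log2 ratio of the share of junction reads was -0.28 in Pde6b rd1, and -0.061 at 100 kb, -0.20 at 20 kb and -0.73 per 1000000 gene reads. In Pde6b rd10 it was 0.10, and 0.26 at 100 kb, 0.36 per 1000000 gene reads and 0.18 over circRNAs counted in at least 2 samples. In Prph rd2 it was 0.046, and 0.22 at 100 kb. The difference in reads per counted circRNA was -0.061, and -0.259 at 100 kb, turned to 0.0682 at 20 kb (exact permutation p = 0.0396), and was -1.003 with circRNAs counted in all 12 samples.

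Deviations of samples with the same replicate number were at most weakly correlated. For circRNAs the Pearson r of such pairs was -0.042 to 0.032. For genes in Pde6b rd1 it was 0.066, 0.058 and 0.12, above the pairs with different numbers (-0.072 to 0.021). This was not so in the other comparisons. With the replicate number as a block, 5, 19 and 3 circRNAs were called in Pde6b rd1, Pde6b rd10 and Prph rd2, 8, 15 and 4 host sums, 16, 51 and 3 host genes and 7 circRNAs across 4 groups. The log2 ratios of the share were -0.279, 0.105 and 0.0487 under the block. Most members had too few reads to be tested, so a change in those was not detectable at this depth.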
